A study of Mus musculus with 12 samples.

Results

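The regions described here are sites of STAT5 binding found by ChIP-seq (sequencing of the DNA that an antibody pulls down with its protein) around 4 genes of the growth hormone pathway: Stat5b, Stat5a and Stat3, which lie next to each other on mouse chromosome 11, and Jak2 on chromosome 19. A region belonged to the set if its centre lay between 100.62 and 100.82 Mb on chromosome 11 (200 kb, the Stat5b-Stat5a-Stat3 window) or between 29.28 and 29.42 Mb on chromosome 19 (140 kb, the Jak2 window), on genome build mm9. These windows held 36 of the 156642 regions in the 3 lists used: 5 of 13278 in wild-type cells, 13 of 71561 in overexpression replicate 1 and 18 of 71803 in overexpression replicate 2. Membership was set by position and not by binding, though the windows were chosen with earlier results of these data known.

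All cells were mouse embryonic fibroblasts on the C57BL/6 background, isolated from fetuses of 12.5 to 13.5 days that came from matings of Stat5+/- mice, and used at passage 9 to 10. The wild-type cells carry intact Stat5 (labelled STAT5 wild type). The overexpressing cells lack Stat5 and carry added STAT5A (labelled STAT5A-Stat5-/-), so STAT5A is the form of STAT5 they were given. The labels do not say how the null allele was made, how STAT5A was introduced or whether a line is a single clone. Both kinds of cells were starved of serum (5 h) and stimulated for 45 min with 1 µg/ml of growth hormone before STAT5 was precipitated. Of the 12 libraries in the series, 3 have a list used here, 1 from wild-type cells and 2 from overexpressing cells, the second of which is titled as a repeat. The other 9 libraries, among them those of Stat5-null cells and IgG controls, were not analysed here, so the background in cells without STAT5 has no value below. The lists give positions only, with no height or score, and the depth of each library is unknown.

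Growth hormone binds its receptor at the cell surface, and the kinase JAK2 bound to the receptor then phosphorylates STAT5A and STAT5B. The phosphorylated proteins pair, enter the nucleus and bind DNA, mostly at the palindrome TTCNNNGAA. STAT3 is a related factor that is best known for signalling downstream of interleukin 6 and its relatives. Stat5a, Stat5b and Stat3 arose by duplication and have stayed neighbours in mammals. In the RefSeq gene table of build GRCm38 the order of protein-coding genes is Ghdc, Stat5b, Stat5a, Stat3 and Cavin1, and Jak2 lies between Rcl1 and Insl6. Gene borders on mm9 were not used here, so no region is assigned to a promoter, intron or exon. All 4 genes matched a RefSeq promoter sequence of GRCm38, which runs from 250 bases before to 50 bases after a transcription start. The letters TTCNNNGAA, which read alike on both strands, occurred in 0 of their 6 promoter windows and in 2726 of all 32851 (8.3%). This search covers those 300 bases only and says nothing of the mm9 regions below, whose sequence was not used here.

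The first question was how the Stat5 interval itself is covered in cells with and without the endogenous genes. In wild-type cells the Stat5b-Stat5a-Stat3 window held 2 regions, in replicate 1 of the overexpressing cells 3 and in replicate 2 11. The overexpression mean was 7 ± 5.66 regions (SD, n = 2), 3.5 times the wild-type number. The ratio was 1.5 for replicate 1 and 5.5 for replicate 2, where the whole lists were 5.39 and 5.41 times as long as the wild-type list. Wild-type regions covered 566 bp, replicate 1 regions 1525 bp and replicate 2 regions 3818 bp, from regions with mean widths of 283, 508 and 347 bp. With 1 wild-type library and replicates that differ this much, no difference in number between genotypes is shown in this window.

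The wild-type and overexpression regions called here lay in different places within the window. Only 2 wild-type regions from 1 library stand behind this, and 38.9% of all wild-type regions overlapped at least 1 overexpression list. No difference in placement between genotypes is therefore shown, and the positions are described only. The wild-type regions stood at chr11:100654443-100654740 (298 bp) and chr11:100754843-100755110 (268 bp), 34.6 and 135.0 kb from the window's start. All 3 replicate 1 regions lay beyond 160 kb, at 162.6, 181.0 and 192.5 kb. Replicate 2 had 1 region at the very start, 0.5 kb in, and its other 10 between 149.5 and 198.8 kb. In bins of 20 kb, the 6 bins from 20 to 140 kb held both wild-type regions and no overexpression region, and the 3 bins from 140 to 200 kb held 3 regions of replicate 1, 10 of replicate 2 and none of wild type. The end that is empty in overexpressing cells is the one nearer Stat5b in the gene order, and the filled end is the one nearer Stat3.

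**Figure D1:**
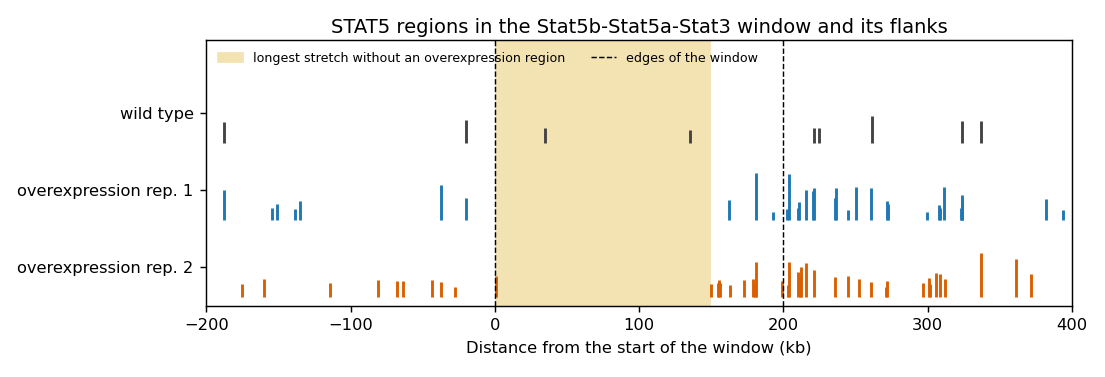
Positions of STAT5 regions in and around the Stat5b-Stat5a-Stat3 window by distance from its start (kb), one row per list. Each vertical line is 1 region and its height is proportional to its width; the shaded stretch of 149 kb holds 2 wild-type regions and none of either overexpression list.

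The stretch without a region in either overexpression list ran from 100620717 to 100769420 on chromosome 11, 149 kb in all. It was 149 kb long in replicate 2 alone and 182 kb, from 100600001 to 100782442, in replicate 1 alone. The 2 wild-type regions inside lay 33.7 and 14.3 kb from the nearest overexpression region. The median over all wild-type regions was 1.47 kb, and 14.5 and 24.3% of them lay at least as far as these. If an allele lacks DNA, no region can be called there, so the absence of binding and the absence of DNA cannot be told apart in the Stat5-null background. Whether the DNA of this stretch is present in the overexpressing cells was not tested.

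An empty stretch of this length was not rare. Of 102961 autosomal stretches between neighbouring overexpression regions (of both lists combined, median 6.84 kb), 2077 (2.02%) were at least as long, and these made up 36.2% of the length of all stretches. On chromosome 11 there were 86. At least 2 wild-type regions lay inside 463 of the 2077 (22.3%), and none inside 50.6%. The surroundings of this stretch were dense, a feature singled out after the positions had been seen. Within 200 kb before it there were 7 regions of replicate 1 and 10 of replicate 2, and within 200 kb after it 24 and 30. That sum of 71 regions compared with a median of 14 around the 2077 long stretches, and 6 of them (0.289%), this one included, reached it. With at least 2 wild-type regions inside as well, 1 stretch remained, the one described. The limits of length, surroundings and wild-type regions were this stretch's own values, so it had to pass them. Members beyond its end are also among the 71. That it alone remained is therefore a description and no test. Counted within 500 kb of the edges, 47 stretches (2.26%) had at least as many regions around them as this one, and 7 of those held at least 2 wild-type regions.

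**Figure D2:**
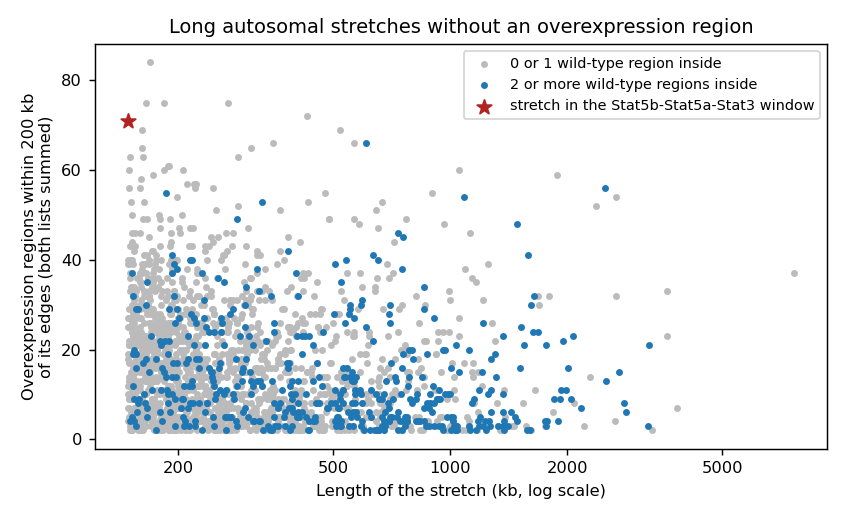
Each point is one of the 2077 autosomal stretches of at least 149 kb without an overexpression region, by length (kb, log scale) and by the number of overexpression regions within 200 kb of its edges, both lists summed. The star is the stretch in the Stat5b-Stat5a-Stat3 window, with 71 regions around it against a median of 14.

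Both flanks of the window were filled in both genotypes. The 200 kb before it held 2 wild-type regions, 7 of replicate 1 and 9 of replicate 2, and the 200 kb after it, which follow the Stat3 end, held 5, 23 and 22. The ratio of the overexpression mean to wild type was 4 in the first flank (8 ± 1.41 regions, SD, n = 2) and 4.5 in the second (22.5 ± 0.707), and the replicates lay close together there, unlike in the window. The window's count was itself ordinary for wild type and for replicate 1. In 12349 autosomal tiles of 200 kb the median was 1 region in wild type and 4 in each replicate. At least 2 wild-type regions were found in 27.1% of tiles and at most 3 replicate 1 regions in 48.7%, and at least 11 replicate 2 regions in 20.6%. The difference of 8 regions between replicates was larger than in most tiles, since 4.44% of tiles differed by at least that many and the median difference was 1. Tiles with fewer than 8 regions in each replicate cannot differ by 8, and 27.5 and 26.3% of tiles were empty in replicates 1 and 2. Tiles of like density were not compared. Only 1 tile had the same counts of 2, 3 and 11. Such exact matches were also few for the Jak2 window described below, whose counts recurred in 6 of 17645 tiles of 140 kb.

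The Stat3 end held the sites common to both overexpression replicates. The broadest site of the window ran from 100800409 to 100801490. Replicate 1 had 1 region there, chr11:100800533-100801490, which was 958 bp wide, and 1% of its whole list was at least as wide. Replicate 2 had a region of 711 bp (chr11:100800721-100801431, with 10.3% of its list at least as wide) and, 37 bp before it, one of 275 bp. The centres of the wide regions lay 64.5 bp apart. The nearest wild-type region to the wide replicate 1 region was 39712 bp away, so this site had no counterpart in the wild-type list. That is usual, since 6.55% of all replicate 1 regions and 5.25% of all replicate 2 regions overlapped wild type. The second common site, from 100782443 to 100782850, was narrower, with a replicate 1 region of 408 bp, a replicate 2 region of 247 bp and centres 70.5 bp apart.

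The other regions at that end were in a single list. Replicate 1 had one of 159 bp at chr11:100812423-100812581, and 96.8% of its list was at least as wide. Replicate 2 had 7 of 259 to 361 bp there, among them 3 within 2 kb of each other, at chr11:100774322-100774594, chr11:100775334-100775673 and chr11:100775844-100776124. Of the 10 gaps between neighbouring replicate 2 regions in the window 4 were under 2 kb, where 19% of its autosomal gaps were. In the window as a whole, 2 of 3 replicate 1 regions overlapped replicate 2 by at least 1 bp, where 51.9% of the whole list did, and 3 of 11 replicate 2 regions overlapped replicate 1, where 43.1% did. Neither wild-type region overlapped an overexpression list, where 38.9% of all wild-type regions overlapped at least 1. With so few regions none of these counts stands apart from its background. The exact 95% binomial intervals were 9.43 to 99.2% for 2 of 3, 6.02 to 61% for 3 of 11 and 0 to 84.2% for 0 of 2, and they cover counting error only.

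The Jak2 window had regions of every list, most of them in its first 60 kb, and none of any list in the bin from 60 to 80 kb. It held 3 wild-type regions, 10 of replicate 1 and 7 of replicate 2, or 8.5 ± 2.12 in overexpressing cells (SD, n = 2), 2.83 times the wild-type number. The ratio was 3.33 for replicate 1 and 2.33 for replicate 2, below the 5.39 and 5.41 of the whole lists, with only 3 wild-type regions behind it. Wild-type regions covered 985 bp of the window, replicate 1 regions 4073 bp and replicate 2 regions 3294 bp. These lengths include 148 bp in replicate 1 and 101 bp in replicate 2 from a region that crosses the window's end and is no member. The members alone came to 985, 3925 and 3193 bp, with mean widths of 328, 392 and 456 bp. Of 17645 autosomal tiles of 140 kb, 6.99% held at least 3 wild-type regions, 12.5% at least 10 of replicate 1 and 24.8% at least 7 of replicate 2. Each list thus had more regions at Jak2 than its median tile, which held 0, 2 and 2, though 55.2, 32.6 and 31.1% of tiles were empty. The 140 kb before the window held 0 wild-type regions, 6 of replicate 1 and 8 of replicate 2, and the 140 kb after it 2, 5 and 10. Replicate 2 thus had more regions in each flank than in the window, and replicate 1 had fewer. The difference of 3 regions between replicates was common, since 24.9% of tiles differed by at least that many.

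**Figure D3:**
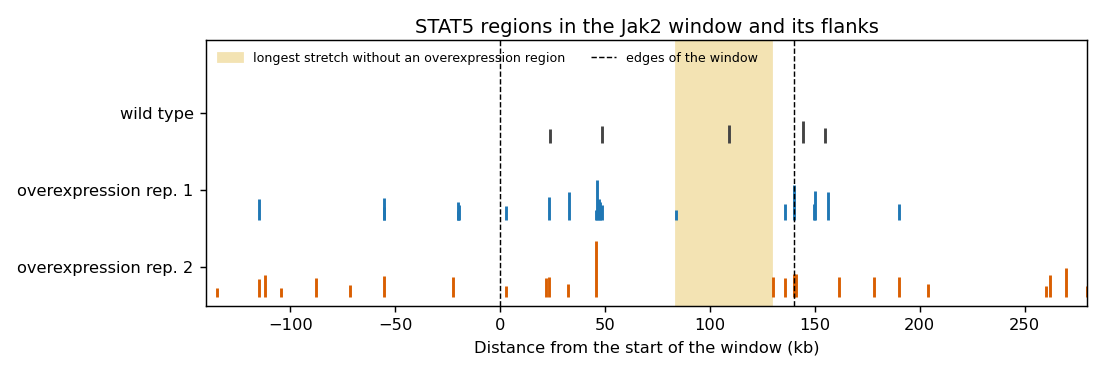
Positions of STAT5 regions in and around the Jak2 window by distance from its start (kb), one row per list, with each region's line as tall as it is wide in proportion. Overexpression regions gather near 46 kb, and the shaded stretch of 45.9 kb without an overexpression region holds 1 wild-type region.

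A single site in these windows was present in every list. It lay near Jak2, 23.6 kb into the window, from 29303293 to 29303761. The regions were chr19:29303463-29303740 in wild type (278 bp), chr19:29303293-29303761 in replicate 1 (469 bp) and chr19:29303299-29303707 in replicate 2 (409 bp). The wild-type and replicate 1 summits, as deposited, lay 30 bp apart. The centres of the replicate regions lay 24 bp apart, and the wild-type centre was 74.5 bp from that of replicate 1 and 98.5 bp from that of replicate 2. The wild-type region lay wholly inside the replicate 1 region. Of all wild-type regions 23.3% were overlapped in both replicates, so 1 of 5 members is no departure.

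The densest group of regions lay 45 to 49 kb into the Jak2 window. Replicate 2 had 1 region there, chr19:29325367-29326499, which at 1133 bp was the widest of all 36 members, and 1.59% of its list was at least as wide. Replicate 1 had 2 regions over the same bases, of 189 bp (chr19:29325523-29325711) and 818 bp (chr19:29325723-29326540), with a gap of 11 bp between them. In the replicate 1 list 3.35% of regions were at least as wide as the second. Close spacing was frequent in that list. Of its autosomal gaps between neighbouring regions 33.6% were under 2 kb, as were 4 of 9 in this window. Replicate 1 went on with regions of 419, 368 and 309 bp up to 29328591, which replicate 2 did not have. The last of these, chr19:29328283-29328591, coincided with the second wild-type region of the window, chr19:29328263-29328601 (339 bp), with summits 25 bp and centres 5 bp apart. Wild type thus had the far edge of the group and not its widest regions. The 1133 bp region of replicate 2 lay 1763 bp from the wild-type region, and the 818 bp region of replicate 1 lay 1722 bp from it.

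The remaining Jak2 sites were spread over the window. Both replicates had regions at 2.9 kb (278 and 226 bp), 32.7 kb (558 and 256 bp) and 135.8 kb (318 and 382 bp), with centres 9, 50 and 2 bp apart. The wild-type list had none at these 3 sites, as at most sites, since 6.55 and 5.25% of the whole replicate lists overlapped it. Replicate 1 alone had a region of 199 bp at 83.7 kb, and replicate 2 alone had regions of 380 and 407 bp at 21.7 and 129.9 kb. The third wild-type region, chr19:29389063-29389430 (368 bp), stood 20.3 kb from any overexpression region, inside a stretch of 45.9 kb that neither replicate filled. Such a stretch is frequent, since 9.98% of the autosomal stretches were at least as long.

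Agreement between replicates was compared for the Jak2 window as well. Of the replicate 1 regions 6 of 10 overlapped replicate 2 (60%, exact 95% interval 26.2 to 87.8%), and of the replicate 2 regions 5 of 7 overlapped replicate 1 (71.4%, interval 29 to 96.3%). The whole lists gave 51.9 and 43.1%, inside both intervals. For both windows together the shares were 8 of 13 (61.5%, interval 31.6 to 86.1%) and 8 of 18 (44.4%, interval 21.5 to 69.2%). Of the wild-type members 2 of 5 overlapped replicate 1 and 1 of 5 replicate 2, where 32.3 and 29.9% of the whole list did. Overlap with wild type was found for 2 of 13 replicate 1 members and 1 of 18 replicate 2 members, where 6.55 and 5.25% of those lists overlapped it. All 3 were at Jak2.

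**Figure D4:**
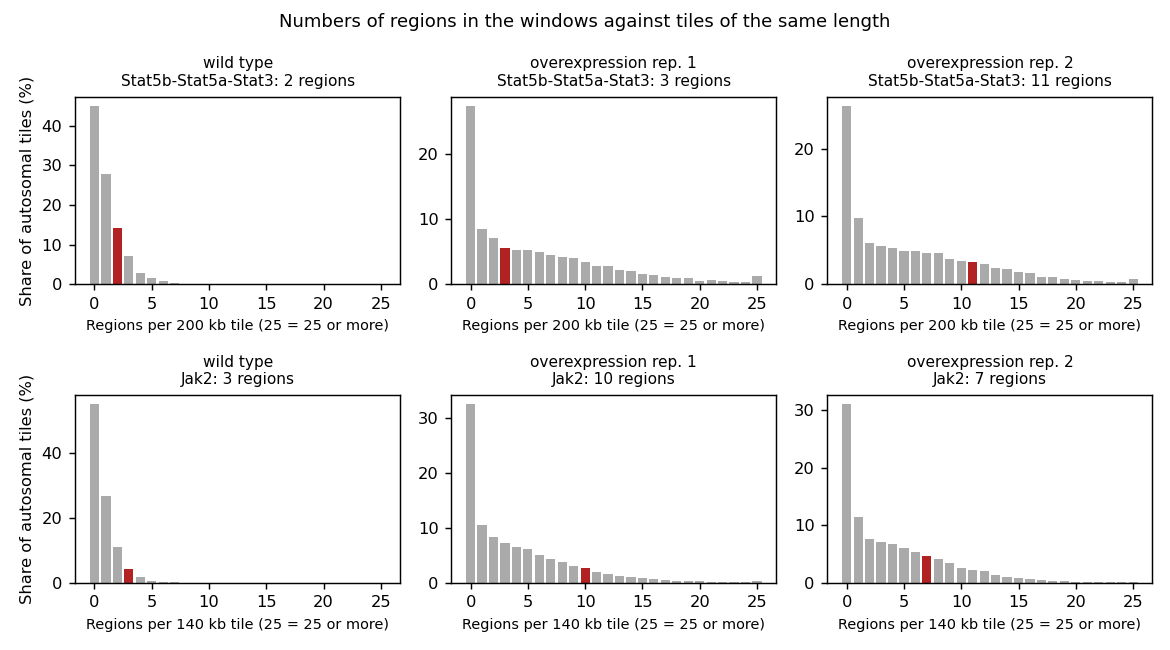
Share of autosomal tiles (%) by number of regions per tile, for tiles of 200 kb (top) and 140 kb (bottom) in each list. The red bar marks the number found in the window itself, such as 2, 3 and 11 for Stat5b-Stat5a-Stat3 and 3, 10 and 7 for Jak2.

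Width varied among the members. The 5 wild-type members were 268 to 368 bp wide, all below the median of 379 bp of their list. Replicate 1 members ranged from 159 to 958 bp and replicate 2 members from 226 to 1133 bp, around list medians of 398 and 378 bp. Members found in the other replicate had a median width of 438.5 bp in replicate 1 (8 regions) and 328.5 bp in replicate 2 (8 regions). Those not found there had medians of 309 bp (5 regions) and 337 bp (10 regions). In the whole lists the shared regions were the wider ones, with medians of 458 against 348 bp and 468 against 329 bp. Replicate 2 members thus did not show that order, and 2 of their 8 shared regions, the broad ones at the Stat3 end and at Jak2, were 711 and 1133 bp wide while the other 6 were at most 409 bp. No test was made of these few regions.

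**Figure D5:**
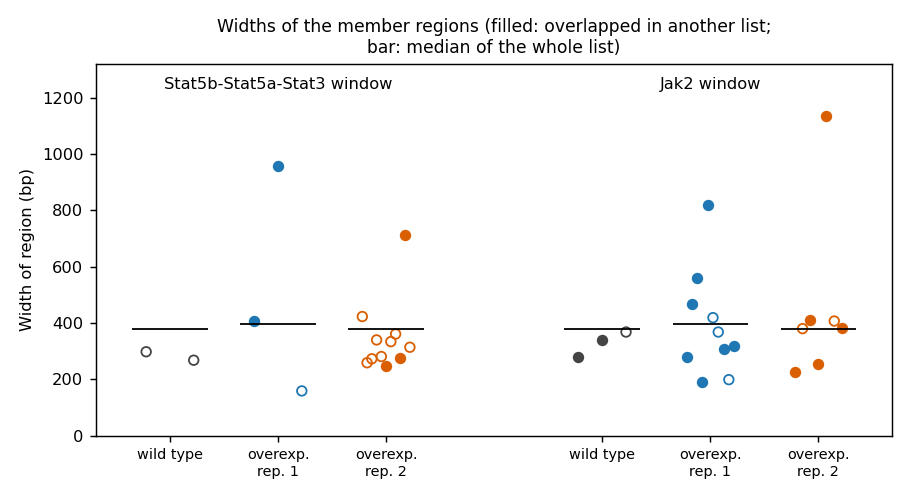
Width (bp) of each of the 36 member regions by window and list; filled points are overlapped in at least 1 other list and open points are not, and the bar is the median of the whole list. The widest are the 1133 bp region of replicate 2 at Jak2 and the 958 bp region of replicate 1 in the Stat5b-Stat5a-Stat3 window.

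Several regions lay close to the windows' edges. In the Stat5b-Stat5a-Stat3 window the last members before the end were replicate 1 and replicate 2 regions 7.5 and 1.23 kb inside it, and the first regions beyond it lay 2.23 and 3.26 kb outside. At the start a replicate 2 region lay 0.504 kb inside, and the nearest ones outside were a replicate 1 and a wild-type region, both 20.2 kb away. At the end of the Jak2 window a site present in both replicates crossed the edge, with its centre outside by 0.211 kb in replicate 1 and 0.128 kb in replicate 2. Counted by any overlap with the window, it would give Jak2 11 regions in replicate 1 and 8 in replicate 2. The last members inside were 4.17 kb from that edge in each replicate.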

How the data were processed

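STAT5 ChIP-seq region lists of stimulated wild-type cells (1 library) and stimulated STAT5A-overexpressing cells (2 libraries) were used, with groups taken from the sample titles. The values are positions on mm9, deposited by the authors without height, score, p-value or read count. The labels name the replicate 2 list under both the stimulated and the unstimulated library of the repeat, and it was taken as the stimulated one from its own name. Region names of replicate 2 begin with MACS, per the file contents. The aligner, the control, the thresholds and the caller of the other lists are not given in the sources at hand. All 5 wild-type and all 13 replicate 1 members have edges on a 10 bp grid (starts share a last digit, and ends do so to within 1 bp), and no replicate 2 member does. In the whole lists 87.1% of wild-type, 100% of replicate 1 and 1.95% of replicate 2 regions are on it. The lists were therefore not all called or written alike. Region numbers, widths and edges may differ for that reason, and SDs between replicates include it. The labels do not say that replicates came from separate cultures.

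Positions were read as BED intervals and are printed counted from 1. Members were chosen by centre, and overlaps of at least 1 bp counted as shared. Intervals of shares are exact (Clopper-Pearson, 95%). Tiles and stretches cover the autosomes up to the last region. Members, windows and comparisons were chosen with earlier results of these data known, and all members may be named. Nothing was tested between genotypes, because wild type has 1 library. A planned count at other JAK-STAT genes and a planned motif search in the regions need mm9 gene positions or sequence and were not run. Interval functions were tested on simulated data and against bedtools 2.31.1. The software was matplotlib 3.10.9, scipy 1.17.1, numpy 2.4.6 and pandas 2.3.3 under Python 3.11.15.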

Additional observations from a re-analysis of the deposited data

How the results depend on the processing

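Of the values that alternatives gave, 36 stayed within the limit set for each result (1.5 times a number or a stretch, the interval of a share, or 1 SD of the replicates for a mean) and 15 went past it. Wild-type and single-replicate covered lengths had no such limit, so any change in them counted. Widening the windows by 20 kb on each side gave 8 regions in replicate 1 and 17 in replicate 2 for Stat5b-Stat5a-Stat3, and 5 in wild type and 16 in replicate 1 for Jak2. Keeping regions at or above the median width of each list left 0 wild-type regions and 0 bp in either window, 2 regions in replicate 2 for Stat5b-Stat5a-Stat3 and 4 in replicate 1 for Jak2. Covered lengths were then 1366 and 1134 bp in replicates 1 and 2 for Stat5b-Stat5a-Stat3, and 2412 and 2812 bp for Jak2, with the bases of the region across the window's end included. A wider window can only raise these values and a shorter list can only lower them. With 2 replicates, each always lies within 1 SD of their mean, so leaving 1 out could not go past that limit. Those values are counted among the 36 but say nothing of stability. Shares of 5 regions have wide limits. Leaving out either replicate gave 3 to 11 regions and 1525 to 3818 bp for Stat5b-Stat5a-Stat3. It gave 7 to 10 regions and 3294 to 4073 bp for Jak2, and 20 to 40% of wild-type members overlapped. The empty stretch was 149 to 182 kb without either replicate and 162 kb with the same wider regions. Within 500 kb instead of 200 kb, 47 long stretches had surroundings as dense, and the cause was not tested. Settings for stretches and tiles were chosen after seeing the data. No paired analysis was possible because the result comes from no test and the compared groups share only 1 replicate number. Depth is unknown for every library, which limits how far numbers of regions can be compared.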
